A study of Mus musculus with 16 samples.

Results

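The acrosome and gamete fusion genes are 10 genes of mouse sperm, Izumo1, Spaca4, Spam1, Spaca3, Acr, Acrv1, Spaca1, Spesp1, Zpbp and Zpbp2. The 10 were chosen by name, with earlier results of these data known, among the 38087 genes of a read count table. They were measured by total RNA sequencing of whole gonads in 4 groups. These were 3 testes of germ-free males (GF, raised without microbes), 4 testes of conventionally raised males (CV, with a gut microbiota), 5 GF ovaries and 4 CV ovaries. All mice were labelled C57BL/6j, 15 to 16 weeks old, fed ad libitum, with tissue taken at zeitgeber time 2 to 4, counted in hours from lights on. The labels name neither the colonies of origin nor separate animals for the replicates, and the p-values then measure only the spread between these libraries, which may be technical.

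The acrosome is a large secretory vesicle that forms from the Golgi apparatus in round spermatids and caps the nucleus of the sperm head. Before a sperm fuses with the egg, the outer membrane of its acrosome fuses with the plasma membrane. Enzymes and binding proteins are released, and the fusion protein IZUMO1 becomes exposed on the sperm surface. IZUMO1 then binds its receptor JUNO on the egg. The RNAs of these proteins are made in developing male germ cells of the testis, and eggs supply the receptor and the coat proteins.

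Library totals ran from 26015487 to 27188919 counts in GF testes, from 25880591 to 28266867 in CV testes, from 13294039 to 15907297 in GF ovaries and from 12912251 to 15141027 in CV ovaries. Levels are CPM, counts scaled to a common library size, on TMM-scaled library sizes unless stated otherwise. The tissue labels matched the protamine gene Prm1, a sperm nuclear protein, at 2867 CPM of the library total in GF and 3003 in CV testes, against 0.273 in GF and 0.232 in CV ovaries. The oocyte growth factor gene Gdf9 stood at 41.8 CPM in GF and 52.2 CPM in CV ovaries, against 9.67 CPM in GF and 10.25 CPM in CV testes. Xist had 11 to 19 counts in the GF testes and 10 to 132 in the CV testes. It had at least 15555 in every ovary library. Libraries varied more in the ovary (biological coefficient of variation 18.5%) than in the testis (4.17%), so smaller differences could be called in the testis.

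In the GF testis 7 of the 10 genes were lower than in the CV testis, and none was called higher. Izumo1, Spaca4, Spam1, Spaca1, Spaca3, Acrv1 and Acr fell by 7.74% to 14.7% (log2 fold changes of -0.23 to -0.12, n = 3 and 4), while Spesp1, Zpbp and Zpbp2 were not called. Calls are genes at an adjusted p under 0.05 in edgeR's quasi-likelihood test, adjusted by the Benjamini-Hochberg method over all 20269 genes tested. Over all those genes 8.08% were called, 4.41% lower and 3.67% higher in GF testes. Since the 10 were chosen with earlier results of these data known, their count beside these shares is a description only. All 10 genes passed the filter on low counts and all had a log2 fold change below 0, which 48.8% of the genes tested had. The median of the 10 was -0.16, against a median of 0.0035 over all genes tested and of -0.22 over the genes called lower. The summed level of the 10 genes was 1608, 1626 and 1629 CPM in the GF testes, against 1758, 1758, 1767 and 1688 CPM in the CV testes. In bulk tissue fewer cells of a type and less RNA per cell cannot be told apart.

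**Figure D1:**
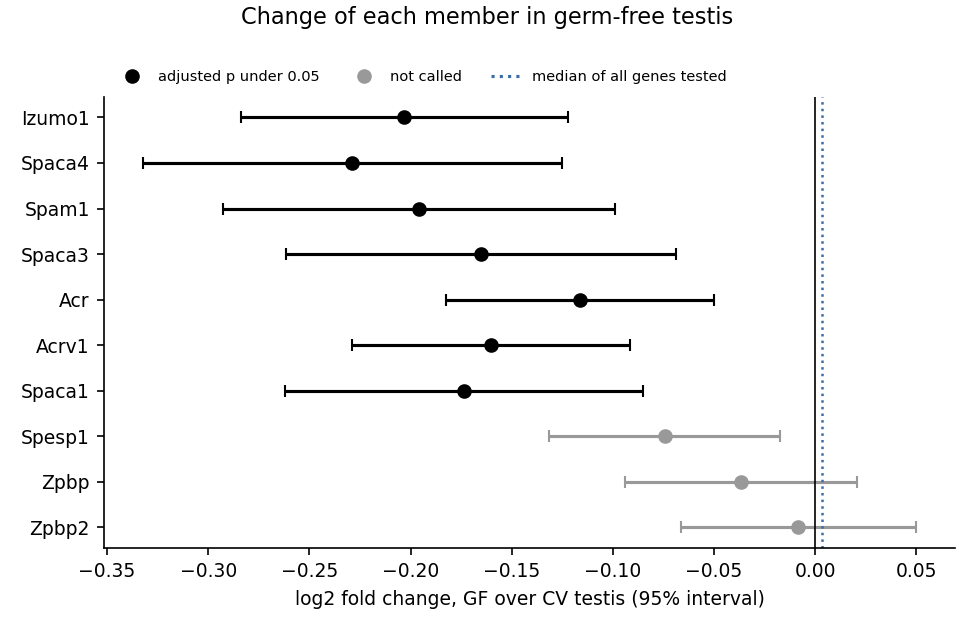
Log2 fold change of each gene, GF over CV testis (points), with its 95% interval (bars), from 3 GF and 4 CV libraries, with the median of all genes tested as a dotted line and genes not called in grey. The 7 genes called lower lie between -0.23 and -0.12, and Zpbp and Zpbp2 have intervals that reach above 0.

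Izumo1, the sperm ligand of the egg receptor and the fusion protein of the set, had 70.4, 78.2 and 74.1 CPM in the GF testes, against 86.3, 86.1, 88.5 and 81.1 CPM in the CV testes. Every GF library lay below every CV library. The log2 fold change was -0.20 (SE 0.0398, edgeR adjusted p = 0.000479). Izumo1 (ENSMUSG00000064158) lies on chromosome 7 of GRCm38 at 45621811 to 45628823, and 654 nt of its 2992 nt of annotated exons are also exon of Rasip1, an endothelial gene on the same strand, so reads there cannot be assigned to either alone. Rasip1 was low in the testis, at 3.63 ± 0.117 CPM of the library total in GF and 3.76 ± 0.307 in CV (SD, n = 3 and 4).

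Spermatid genes are known to be switched on by the factor CREM, which binds the cyclic AMP response element. The 250 bases before the start site, from RefSeq (GRCm38.p6), were searched on both strands for that element, TGACGTCA, for its core TGACG, which lies within it, and for ACACAC, the complement of the repeat that the protein TDP-43 is known to bind in the mouse Acrv1 promoter. A window was found for 9 of the 10 genes. The windows shown are those of a gene called lower that holds the full element, of a gene called lower that holds the repeat, and of a gene not called that holds the core alone, with every match on either strand in capitals (CGTCA and GTGTGT are matches on the other strand). They are chr7:45621561-45621810 on the plus strand for Izumo1, chr9:36692970-36693219 on the plus strand for Acrv1, which overlaps an exon of the noncoding RNA gene 1700027I24Rik on the other strand, and chr11:98550847-98551096 on the plus strand for Zpbp2.
Izumo1 promoter: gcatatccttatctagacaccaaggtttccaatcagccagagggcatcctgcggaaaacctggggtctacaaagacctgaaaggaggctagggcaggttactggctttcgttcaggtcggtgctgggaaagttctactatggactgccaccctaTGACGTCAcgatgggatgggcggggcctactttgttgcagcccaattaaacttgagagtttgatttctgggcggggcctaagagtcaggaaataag
Acrv1 promoter: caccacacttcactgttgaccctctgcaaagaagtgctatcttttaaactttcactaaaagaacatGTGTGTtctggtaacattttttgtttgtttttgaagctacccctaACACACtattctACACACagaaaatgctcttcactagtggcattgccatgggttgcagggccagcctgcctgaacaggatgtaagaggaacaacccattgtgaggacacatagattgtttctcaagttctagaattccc
Zpbp2 promoter: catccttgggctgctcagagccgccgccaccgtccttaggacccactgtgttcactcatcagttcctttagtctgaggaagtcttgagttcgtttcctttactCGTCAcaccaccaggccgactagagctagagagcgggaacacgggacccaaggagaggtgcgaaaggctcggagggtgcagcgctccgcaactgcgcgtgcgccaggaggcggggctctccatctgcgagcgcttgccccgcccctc
The full element was found in the window of Izumo1 alone among the 9 genes, starting at position -96 from the start site, and in 1.62% of 27025 promoter windows of the same length. The core was in 4 of the 9, those of Izumo1, Spaca1, Spaca3 and Zpbp2, and in 17.9% of all windows. ACACAC or its complement was in the window of Acrv1 alone, at 3 places, and in 14.7% of all windows. The core was thus present both in genes called lower and in Zpbp2, which was not called, and a match describes the letters and not a bound site.

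Of the surface proteins and enzymes, Spaca4, which encodes a GPI-anchored protein of the sperm head membrane, had the most negative log2 fold change of the 10. It had 60.5, 63.1 and 58.1 CPM in the GF testes, against 68.5, 74.9, 76.3 and 64.3 CPM in the CV testes, with no overlap of the groups (log2 -0.23, SE 0.0501, edgeR adjusted p = 0.00358). Spam1, the hyaluronidase PH-20 that opens the matrix around the egg, had 75.1, 76.5 and 85.1 CPM in the GF testes, against 94.7, 88.6, 94.6 and 83.6 CPM in the CV testes. GF 3 stood above CV 4, so the ranges overlapped (log2 -0.20, SE 0.0467, edgeR adjusted p = 0.00847). Acr, the serine protease acrosin, had 118, 115 and 116 CPM in the GF testes, against 126, 129, 125 and 124 CPM in the CV testes. Its change was the smallest of the 7 calls, and its groups did not overlap (log2 -0.12, SE 0.0326, edgeR adjusted p = 0.0184). In GRCm38 Spaca4 (ENSMUSG00000070563) lies on chromosome 7 at 45725107 to 45725813, Spam1 (ENSMUSG00000029682) on chromosome 6 at 24791188 to 24801048 and Acr (ENSMUSG00000022622) on chromosome 15 at 89568326 to 89574585.

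Acrv1, Spaca1 and Spaca3, which encode further acrosomal proteins, were also called lower. Acrv1, the acrosomal protein SP-10, had 169, 180 and 170 CPM in the GF testes, against 196, 199, 197 and 181 CPM in the CV testes (log2 -0.16, SE 0.0338, edgeR adjusted p = 0.00125). Its groups were separated only narrowly, by GF 2 and CV 4. Spaca1, a membrane protein needed to shape the acrosome and the sperm head, had 159, 170 and 165 CPM in the GF testes, against 193, 189, 194 and 168 CPM in the CV testes. CV 4 lay below GF 2 (log2 -0.17, SE 0.0422, edgeR adjusted p = 0.0128). Spaca3, a lysozyme-like protein of the acrosome, had 95.6, 97.3 and 92.3 CPM in the GF testes, against 103, 114, 113 and 97.0 CPM in the CV testes. Here too the CV 4 library lay within the GF range (log2 -0.17, SE 0.0462, edgeR adjusted p = 0.0297). Acrv1 (ENSMUSG00000032110) lies on chromosome 9 at 36693220 to 36698843, Spaca1 (ENSMUSG00000028264) on chromosome 4 at 34024874 to 34050191 and Spaca3 (ENSMUSG00000053184) on chromosome 11 at 80858365 to 80867814.

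Spesp1 and the paired genes Zpbp and Zpbp2 were not called. Spesp1, a protein of the equatorial segment where sperm and egg fuse, had 325, 321 and 337 CPM in the GF testes, against 345, 344, 340 and 352 CPM in the CV testes. The groups did not overlap, and the edgeR adjusted p was 0.108 (log2 -0.07, 95% interval -0.13 to -0.017). Zpbp, a zona pellucida binding protein of the acrosomal matrix, had 273, 274 and 273 CPM in the GF testes, against 286, 277, 280 and 277 CPM in the CV testes. The groups lay apart by a few CPM (log2 -0.037, 95% interval -0.094 to 0.020, edgeR adjusted p = 0.531). Zpbp2, its paralog, had 262, 251 and 259 CPM in the GF testes, against 260, 257, 258 and 261 CPM in the CV testes. Its ranges overlapped throughout (log2 -0.0083, 95% interval -0.066 to 0.050, edgeR adjusted p = 0.917). In all, 6 of the 10 genes had GF ranges wholly below the CV range, as did 8.46% of the genes tested, and none had a GF range wholly above it, as 8.66% did. Zpbp (ENSMUSG00000020193) lies on chromosome 11 at 11279626 to 11462408, where 223 nt of its exons overlap 4930415F15Rik (Spata48 in the annotation) on the other strand. Zpbp2 (ENSMUSG00000017195) lies on the same chromosome at 98551097 to 98558665, and Spesp1 (ENSMUSG00000046846) on chromosome 9 at 62270729 to 62282208.

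**Figure D2:**
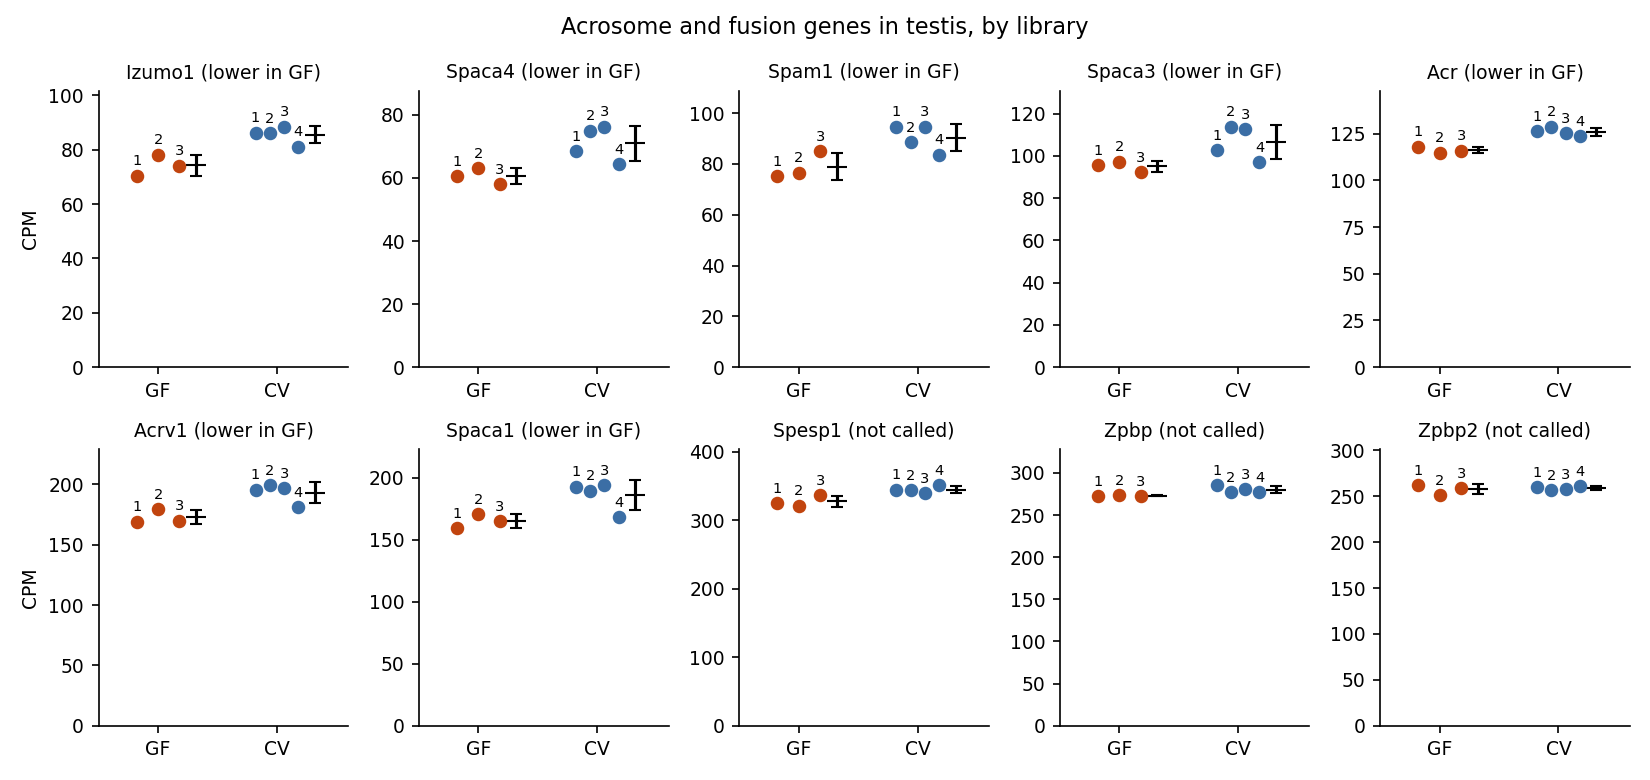
CPM of each gene in each of the 3 GF (left in each panel) and 4 CV testis libraries (right), numbered by replicate, with the mean and SD as a bar beside them. CV 4 is the lowest CV library in all 7 panels of genes called lower, and Zpbp2 averages 258 CPM in GF and 259 CPM in CV.

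The CV 4 library was the lowest of the 4 CV testes for all 7 genes called lower, and its summed level of 1688 CPM stood apart from the 1758 to 1767 CPM of the other 3. Without CV 4 again 7 of the 10 genes were called, and the median log2 fold change of all 10 was -0.20. The GF 1 library was the lowest GF testis for 4 of the 7. It also held RNA of epididymal genes, with a sum of 17.1 CPM over 10 markers of that neighbouring duct, against 0.947 and 1.01 CPM in the other GF testes and 0.459 to 1.27 CPM in the CV testes, led by Adam7 with 214 counts and Spink8 with 163. The part of either library's difference in the results was not tested beyond leaving it out.

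Leaving out 1 testis library at a time kept between 4 and 7 genes called by edgeR, all lower. Acrv1, Izumo1 and Spaca4 were called each time. Without GF 1 the call of Spaca1 (adjusted p = 0.0578), Spaca3 (0.0779) and Spam1 (0.0527) ended, leaving 4. Without GF 2 that of Acr (0.0951), Spaca3 (0.0847) and Spam1 (0.0830) ended, leaving 4, and without GF 3 that of Acr (0.0743) and Spaca3 (0.118). The call of Acr also ended without CV 2 (0.0549) and that of Spaca3 without CV 3 (0.0759). In a fit over all 16 libraries, whose shared coefficient of variation was 14.0%, none of the 10 was called (adjusted p from 0.573 for Spaca4 to 0.948 for Acr among the 7), and 122 genes were called in all. The log2 fold changes of the 7 were -0.25 to -0.13 in that fit.

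Per kilobase of annotated exon, Zpbp2 had the highest level of the 10 genes in both testis groups and Izumo1 the lowest. Zpbp2 stood at 153 ± 3.28 CPM per kb in GF and 154 ± 1.14 in CV testes (SD, n = 3 and 4), and Izumo1 at 24.8 ± 1.30 and 28.6 ± 1.04 CPM per kb in GF and CV. In GF testes Spesp1 (108), Spaca1 (103) and Spaca3 (100.0 CPM per kb) followed Zpbp2, and neighbours in that order overlapped in range. In CV testes Spaca1 (117), Spesp1 (113), Spaca3 (112) and Spaca4 (101 CPM per kb) overlapped likewise, so their order is within the spread. Below them the order was the same in both groups and without overlap between neighbours. Acr stood at 74.2 CPM per kb in GF and 80.4 in CV, Zpbp at 64.2 and 65.9, Acrv1 at 47.4 and 53.0, and Spam1 at 35.6 and 40.8. These levels depend on the exon lengths of GENCODE M21, since the annotation used for counting is not given in the sources used here. Each length covers all annotated exons of a gene, merged over its transcripts, and can exceed that of the RNA made in the testis.

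**Figure D3:**
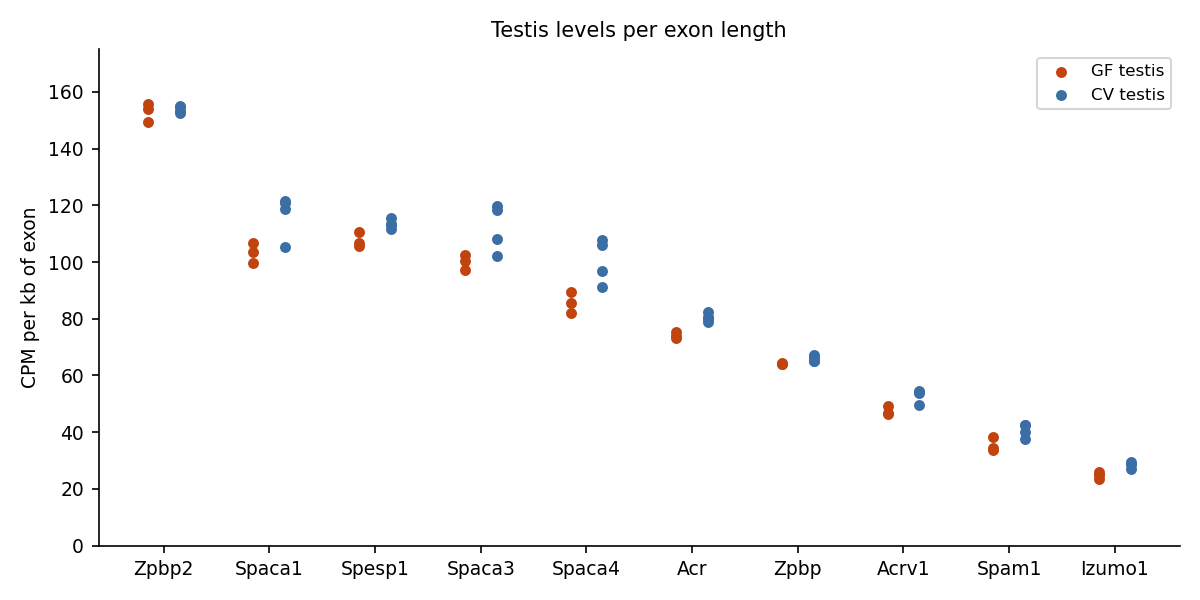
CPM per kilobase of annotated exon for each gene, 1 point per GF testis library (left of each pair) and CV testis library (right). Zpbp2 stands near 153 CPM per kb in both groups, and Izumo1 is lowest in both.

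Other genes of the same processes were taken from 5 lists written from textbook knowledge, holding 84 genes found in the table. The lists were chosen with earlier results of these data known, so their calls are no independent check of the 10 genes. Among 10 further genes of gamete fusion, 4 were called lower and none higher, with a median log2 fold change of -0.13. They were Llcfc1 (1700034O15Rik in the file; log2 -0.22, edgeR adjusted p = 5.23e-06), Izumo3 (-0.18, 0.00160), Dcst1 (-0.15, 0.0125) and Spaca6 (Ncrna00085 in the file; -0.20, 0.0274). Llcfc1, Spaca6 and Dcst1 are, like Izumo1, needed for mouse sperm to fuse with or enter the egg. Among 16 further acrosomal contents 4 were called lower and none higher (median -0.095). They were Spaca7 (log2 -0.21, edgeR adjusted p = 0.000283), Zp3r, a protein of the acrosomal matrix (-0.17, 0.000478), Eqtn, the membrane protein equatorin (-0.24, 0.00167), and the lysozyme-like Lyzl6 (-0.19, 0.0131). Without CV 4 the acrosomal contents had 8 calls, and without GF 1 or without CV 3 the fusion list had 2.

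Of 20 genes that form, attach or shape the acrosome 4 were called lower and none higher, and the median was 0.0010. They were Fam170b, an acrosomal protein (log2 -0.23, edgeR adjusted p = 4.64e-06), Actl7a, an actin-related protein that holds the acrosome to the nucleus (-0.15, 0.000525), and Cylc1 (-0.14, 0.0123) and Cylc2 (-0.18, 0.0174), cylicins of the layer beneath the acrosome. Of 15 tested genes of the acrosome reaction and egg activation 4 were lower and none higher (median -0.050). These were Kcnu1, the sperm potassium channel SLO3 (log2 -0.21, edgeR adjusted p = 6.29e-05), the calcium channel gene Catsper1 (-0.15, 0.00761), Trpc2 (-0.18, 0.0115) and Plcz1, the phospholipase that activates the egg (-0.092, 0.0312). Without GF 2 the first of these lists had 2 calls, and without CV 2, CV 3 or GF 3 the list of the acrosome reaction had 2. Of 21 sperm ADAM proteins, chaperones and maturation factors none was called (median 0.012), with 4 at an unadjusted p under 0.05 and none called by DESeq2. Scaling by library totals gave 3 calls, all higher, and testing without the filter on low counts gave 1, higher. Leaving out CV 4 gave 3 (2 higher, 1 lower), and leaving out CV 2 or GF 3 gave 1 each, higher. Replicate number as a block gave 1, lower. Without these changes the 4 of smallest p were the chaperone Calr3 (log2 0.11, edgeR adjusted p = 0.0578), Tex101 (0.092, 0.0620), Adam18 (0.090, 0.0702) and the disulphide isomerase Pdilt (-0.085, 0.191). Over the 5 lists 16 genes were called lower and none higher. Without CV 4 the count was 26 (24 lower, 2 higher), and over all single libraries left out it ran from 12 to 26. Of all genes tested 4.41% were called lower and 3.67% higher. Without CV 4 the calls over all genes rose as well, from 1638 to 2084.

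**Figure D4:**
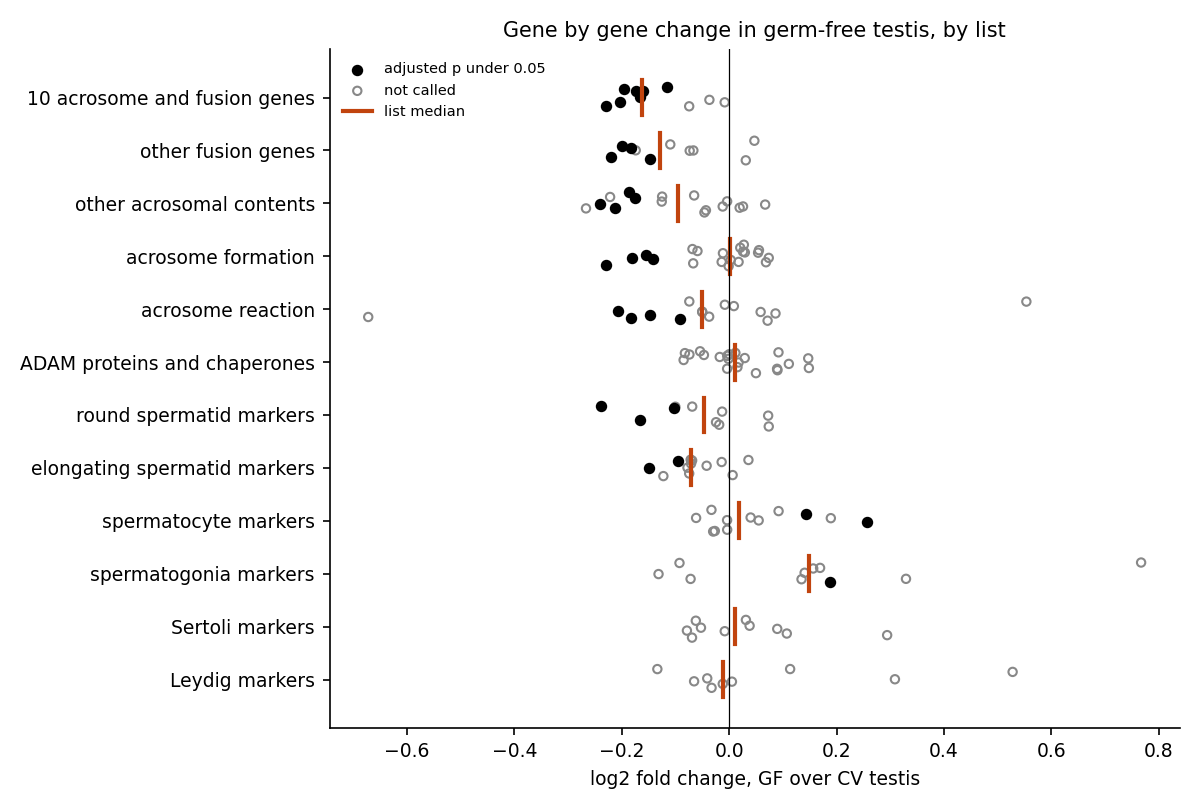
Log2 fold change, GF over CV testis, of every tested gene (points) of the 10 acrosome and fusion genes, the 5 related lists and 6 marker lists, with called genes filled and list medians as vertical bars. The 10 genes have a median of -0.16, and the ADAM list holds no called gene.

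Of the germ cell stage markers, only 1 to 3 of each list were called, and these were lower for spermatids and higher for the stages before them. Of all genes tested 4.41% were called lower and 3.67% higher. The spermatocyte list had a median of 0.018, with 6 of its 12 genes below 0. Of 10 round spermatid markers 3 were called lower and none higher (median -0.047), with Catsper4 at -0.24 (edgeR adjusted p = 8.92e-06) and Klhl10 at -0.17 (8.20e-05). The other call was Crem, the gene of the factor named with the promoters, chosen for naming after its values were seen, at a mean of 219 CPM in GF and 235 CPM in CV testes with no overlap (log2 -0.10, edgeR adjusted p = 0.0274). Their summed level was 2707 to 2711 CPM in GF and 2721 to 2867 CPM in CV testes. Of 12 elongating spermatid markers 2 were lower (median -0.071), the tail protein gene Odf1 at -0.15 (0.000131) and Oaz3 at -0.094 (0.0181), and the summed levels overlapped, at 20665 to 22033 CPM in GF and 21388 to 22763 CPM in CV. Of 12 spermatocyte markers 2 were higher and none lower, Piwil1 at 0.26 (3.07e-07) and Spo11 at 0.14 (0.0184). The summed level of the 12 was 2164 to 2181 CPM in GF and 2045 to 2097 CPM in CV testes. Piwil1 alone averaged 419.5 CPM of that sum in GF and 351 CPM in CV testes, so the sums lean on this gene. Of 10 spermatogonia markers 1 was higher and none lower (median 0.15, with 3 of the 10 below 0). The call was Uchl1 at 0.19 (0.0172), and Id4, among the 3 below 0, followed by p at -0.13 (0.155). Summed levels were 127 to 136 CPM in GF and 127 to 130 CPM in CV. None of 10 Sertoli and 9 Leydig markers was called, with 0 and 1 at an unadjusted p under 0.05 and summed levels of 935 to 970 and 1036 to 1067 CPM in GF, against 923 to 968 and 839 to 1124 CPM in CV. The smallest adjusted p-values there, by edgeR, were those of Trf (log2 0.29, 0.273) and Inhbb (0.090, 0.471) for Sertoli cells and of Lhcgr (0.53, 0.238) and Insl3 (-0.065, 0.258) for Leydig cells. No marker of these 6 lists was at 0 counts in either testis group. The part of germ cell stage in the lower levels of the 7 genes was not tested.

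In the ovary the 10 genes together reached 3.84 to 6.51 CPM in GF and 3.98 to 6.47 CPM in CV libraries, and 8 of them did not pass the filter on low counts. Izumo1 and Zpbp were the 2 that passed. Izumo1 had 47, 33, 24, 23 and 32 counts in the GF ovaries, against 30, 21, 15 and 25 counts in the CV ovaries, or 2.18 ± 0.530 CPM in GF and 1.59 ± 0.374 CPM in CV (SD, n = 5 and 4). The ranges overlapped (log2 0.46, 95% interval -0.082 to 0.995, edgeR adjusted p = 0.810). Rasip1, which shares exons with Izumo1, stood at 16.3 ± 1.78 CPM of the library total in GF and 13.9 ± 2.34 in CV ovaries (SD, n = 5 and 4), and its part in the Izumo1 counts was not tested. Zpbp had 37, 33, 40, 21 and 21 counts in the GF ovaries, against 36, 52, 26 and 35 in the CV ovaries (log2 -0.30, 95% interval -0.88 to 0.28, edgeR adjusted p = 0.892). Its groups overlapped as well. None of the 10 was called in the ovary by edgeR or by DESeq2, none had an unadjusted p under 0.05 in edgeR, and 0.177% of the 18095 genes tested were called (32 genes, 0.0663% lower and 0.111% higher). Neither of the 2 had ranges apart, as 1.44% of the genes tested had with GF below CV and 1.28% with GF above, and 1 of the 2 had a log2 fold change below 0, as had 48.3% of all. With replicate number as a block, in 4 pairs, 91 genes were called in the ovary and again none of the 10. The difference between the tissues in the GF over CV change was tested by edgeR over 21977 genes. It was read only for these 2 genes, which were tested in both tissues. The difference was -0.68 for Izumo1 (SE 0.198, edgeR unadjusted p = 0.00313, adjusted p = 0.342). For Zpbp it was 0.25 (SE 0.215, edgeR unadjusted p = 0.255, adjusted p = 0.866).

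The other 8 genes had at most 15 counts in any ovary library. Acrv1 had no count in the 5 GF ovaries and 1 in the 4 CV ovaries, against 13840 counts in the GF and 20729 in the CV testes. Against a floor of 3 counts over the group, its share of counts was at least 4170-fold higher in GF testes than in GF ovaries. Spesp1 had 26206 counts in GF testes and 2 in GF ovaries, a ratio of shares of 11900 (95% counting interval 3280 to 97900), and 37048 counts in CV testes and 2 in CV ovaries, a ratio of 9840 (2720 to 81200). The ratio of testis to ovary was lowest for Izumo1, at 33.8 in GF (95% counting interval 28.9 to 39.8) and 53.5 in CV (43.5 to 66.5). Zpbp came next, at 130 in GF (111 to 153) and 107 in CV (91.2 to 127). For Acr, Spaca1, Zpbp2, Spam1 and Spaca3 the ratio lay between 443 and 1380 in GF mice and between 378 and 1520 in CV mice. For Spaca4 it was 4380 in GF (787 to 173000) and 2020 in CV (560 to 16700), resting on 1 and 2 ovary counts. The intervals cover counting error only.

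**Figure D5:**
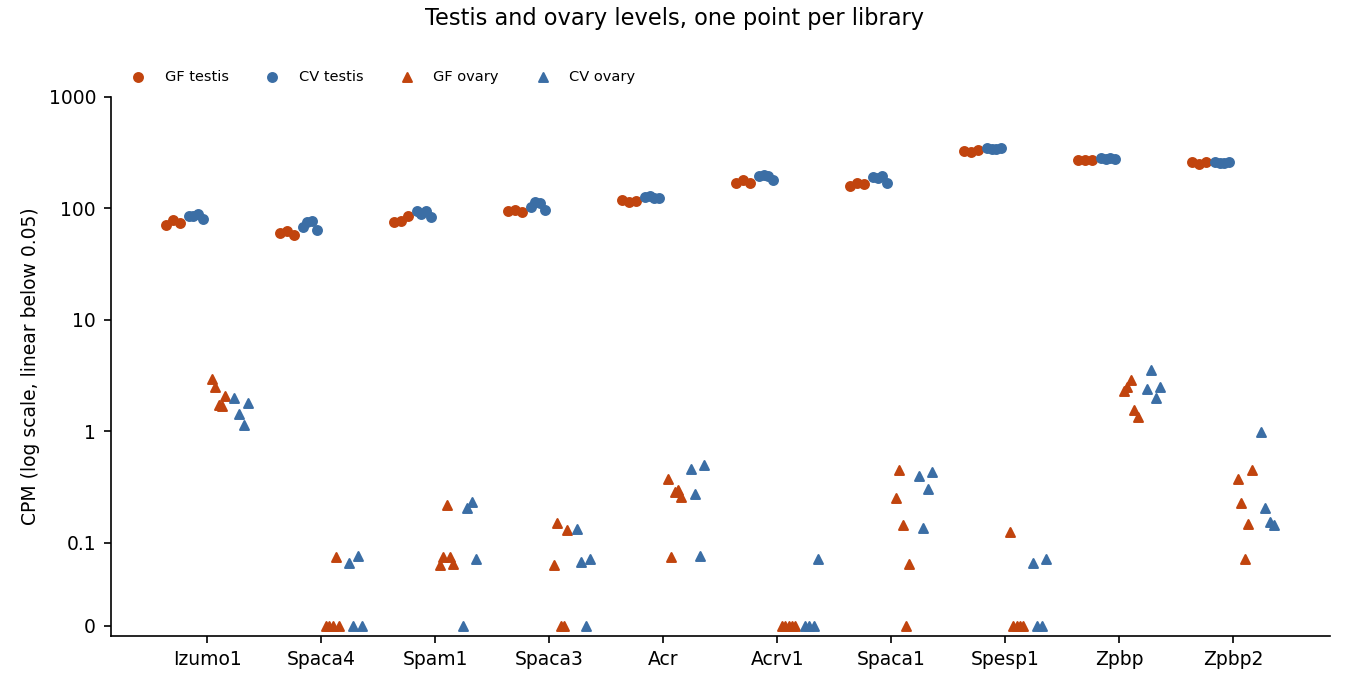
CPM of each gene in every library of GF and CV testes (circles) and GF and CV ovaries (triangles), on a log axis that is linear below 0.05. Testis libraries lie between 58.1 and 352 CPM, and only Izumo1 and Zpbp exceed 1 CPM in the ovary.

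Genes of the egg side were read in the ovary, where the partners of these sperm proteins are made. Of 12 genes of the egg coat, egg surface, cumulus matrix and oviduct none was called in GF ovaries (median log2 fold change -0.17). Of them 1 had an unadjusted p under 0.05 in edgeR, and none was called by DESeq2. Only 0.177% of the 18095 genes tested in the ovary were called, so the lack of calls among so few genes says little about them. The receptor of IZUMO1, Izumo1r (JUNO; Folr4 in the file), was low in whole ovary, at a mean of 1.56 CPM in GF and 1.62 CPM in CV (log2 -0.053, edgeR adjusted p = 0.983); it was chosen for naming after its values were seen. Cd9, an egg membrane tetraspanin needed for fusion and also made by many other cells, averaged 87.5 CPM in GF and 102 CPM in CV ovaries (log2 -0.22, edgeR adjusted p = 0.759). The egg coat genes Zp2 (40.7 CPM in GF and 49.7 CPM in CV) and Zp3 (21.3 and 24.99 CPM in GF and CV) and the oocyte-secreted protein gene Oosp1 (7.80 and 9.23 CPM in GF and CV) had log2 fold changes of -0.29, -0.23 and -0.24, with edgeR adjusted p-values of 0.810 to 0.895. Of the oocyte markers 8 of 8 tested had a log2 fold change below 0, with none called and 0 at an unadjusted p under 0.05 in edgeR, and summed levels of 138 to 229 CPM in GF and 131 to 235 CPM in CV ovaries. Of 8 granulosa markers none was called and 0 had an unadjusted p under 0.05, with 6 below 0. The oviduct glycoprotein gene Ovgp1, named after its values were seen, averaged 2664 CPM in GF and 3038 CPM in CV libraries labelled ovary, and the part of oviduct RNA in them was not tested.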

How the data were processed

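The authors deposited raw counts, as whole numbers for each gene, in 1 table. Per the submitters' processing notes STAR 2.4.0i and the mm10 build were used, and per the labels' protocols ribosomal RNA was depleted and strand-specific libraries of total RNA were made. For the counting tool, its annotation and its strand setting, the sources used here give nothing. All 16 columns matched a sample by name. Positions and exon lengths came from GENCODE M21 (GRCm38, the assembly of mm10), and promoters from RefSeq.

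Counts were tested within each tissue, GF over CV, by edgeR's quasi-likelihood test (edgeR 4.0.16, R 4.3.3; TMM, expression filter, robust dispersions), tested on simulated data first. Benjamini-Hochberg adjustment ran over all genes tested, and calls are at an adjusted p under 0.05. SE and 95% intervals come from the same fit. Testis over ovary was described by ratios with exact Clopper-Pearson counting intervals, since most members fail the filter in the ovary. Of 189 further list symbols 187 were found. Named genes are the members, the 4 of smallest p in each related list and the 2 in each marker list of the testis. Members, lists and motifs were chosen with earlier results of these data known. Alternatives were RLE scaling, library totals, no filter, DESeq2 1.42.0, limma-voom (limma 3.58.1), a replicate block, a joint fit and each library left out. The interaction test was added after seeing the data. Markers of epididymis, oocyte and granulosa cells served as checks of other cells. In the testis 4 oocyte and 6 granulosa markers were tested and none was called (0 at an unadjusted p under 0.05 in edgeR). The 1 epididymal marker tested, Spink8, was not called either (log2 3.02, edgeR adjusted p = 0.293).

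Replicates of a group differed by more than sampling noise (chi-square per degree of freedom 2.37 to 34.3). In the ovary libraries of the same number deviated together from their group means (r = 0.200 to 0.367 in 4 pairs), and in the testis they did not (-0.0427 to 0.0142 in 3 pairs). The ovary GF 3 library, however, correlated more with CV 2 than with CV 3.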

Additional observations from a re-analysis of the deposited data

Results flagged for a closer look

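Of 33 cases of a gene's or the summed level within a group of 4 or 5 libraries, 6 had 1 library far from the others, where chance gives about 1 in 20. Acrv1 in the GF ovaries, counted among the 33, was at 0 in every library and could not be checked. The summed level of the 10 genes in the testis CV 4 library was 1688 CPM, against 1758 to 1767 CPM in the other CV testes.

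The other 5 lay in the ovary and rest on a few counts each. Zpbp2 stood at 0.990 CPM in the CV 1 ovary, against 0.144 to 0.203 CPM in the other CV ovaries. Spam1 stood at 0.216 CPM in the GF 3 ovary, against 0.0626 to 0.0751 CPM in the other GF ovaries. Spesp1 stood at 0.125 CPM in the GF 1 ovary, Spaca4 at 0.0738 CPM in the GF 4 ovary and Acrv1 at 0.0719 CPM in the CV 4 ovary, each with no count in the group's other libraries. There the rule flags any count in a single library, so these flags carry no weight.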

How the results depend on the processing

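In the testis the count of 7 lower genes was the same with RLE scaling, library totals, no filter, DESeq2, limma-voom and the replicate block, and it was 0 in the joint fit of all libraries, where the 5 related lists also had 0 calls and 122 genes were called in all. Over libraries left out it ran from 4 to 7, the count over the related lists from 12 to 26, and the count over all genes from 996 (without GF 2) to 2084 (without CV 4), against 1638. The summed levels of the 10 genes moved by less than 1 SD under every scaling and left-out library tried, and their median log2 fold change in the testis ran from -0.20 to -0.14 over libraries left out. Zpbp2 changed sign, with log2 values of -0.026 to 0.0060 over libraries left out. Of 172 single values of the members under alternatives, 154 kept direction and side of the threshold and 17 lost a call.

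In the ovary 32 genes were called, 95 with DESeq2, 93 in the joint fit and 91 with the replicate block, and 25 to 33 over libraries left out, with none of the 10 genes and none of the egg genes called in any of these. In the testis the block, on 3 numbers shared by both groups and so without CV 4, gave 1692 calls, 7 of the 10 genes and 21 related genes, but the numbers did not pair those libraries. It changed no call of a member. In the ovary 8 of the 10 genes were not tested, having at most 15 counts in any library.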
